A study of Homo sapiens with 15 samples.

Results

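The genes described here are 8 members of the BCL2 family, the proteins that control whether the outer membrane of the mitochondrion is opened during apoptosis: BCL2, BCL2L1, MCL1, BAX, BAK1, BID, PMAIP1 and BIK. They were chosen by symbol, and these 8 are among the 33158 genes of the deposited expression table. No caspase is among them, and those given below come from lists of other apoptosis genes. Messenger RNA was sequenced from 3 triple negative breast cancer cell lines in 15 libraries, to find genes that separate cancer stem cells (CSCs) from the remaining cells (non-CSCs). SUM149PT and HCC1937 cells were sorted by flow cytometry on the surface proteins CD44 and CD24 into a CD44+/CD24-/low fraction, the CSCs, and the other cells, the non-CSCs, with 3 libraries of each fraction. SUM159PT, labelled SUM159, was sequenced unsorted in 3 libraries, and the study treated it as a line of CSCs. No treatment is given for any of the 5 groups. The SUM lines and HCC1937 were grown in different media, so medium and line cannot be told apart between them. The labels number the libraries of a group but do not say that they came from separate cultures, so the p-values measure only the spread between these libraries, which may be technical.

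In the intrinsic pathway of apoptosis, the guardians BCL2, BCL-XL (gene BCL2L1) and MCL1 hold the effectors BAX and BAK (gene BAK1) in check. The BH3-only proteins, here BID, NOXA (gene PMAIP1) and BIK, answer stress by binding guardians or by activating the effectors, which then form pores and release cytochrome c for caspase activation. Breast cancer cells often depend on MCL1 or BCL-XL for survival, and NOXA is known for binding MCL1 in particular.

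Levels are FPKM, a fragment count scaled to transcript length and library size, as the authors deposited them. The 3 SUM159PT libraries stood apart from the 12 sorted libraries on this scale. Their FPKM values summed to 634750 to 652080, against 291280 to 366530 in the sorted libraries. In SUM159PT 8534 to 8670 genes were above 1 FPKM, against 11249 to 11997 genes in the sorted libraries, and the 10 most abundant genes made up 18.8% to 19.4% of the sum, against 9.60% to 13.9%. Across 11192 genes, the difference between SUM159PT and SUM149PT CSCs rose with the gene's GC content (Spearman rho 0.63, across genes, which are not independent replicates), and the rho against HCC1937 CSCs was 0.58. With a GC trend removed, the MCL1 difference from SUM149PT CSCs went from -3.20 to -1.43, the MCL1 difference from HCC1937 CSCs from -2.02 to -0.14 and the PMAIP1 difference from SUM149PT CSCs from -4.27 to -1.85, and all 3 stayed called. The contrasts of SUM159PT with the CSCs are also given relative to the median of all genes, which takes off no such trend. The fraction comparisons within SUM149PT and HCC1937 use no SUM159PT library.

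Calls rest on limma's adjusted p, with 0.05 as the limit, for differences of log2(FPKM + 0.1), a scale that understates the changes of low genes. The depth behind the FPKM values is unknown. In SUM149PT all 8 genes were tested and called: 5 were higher in CSCs (BCL2, BCL2L1, MCL1, BAK1 and BID) and 3 were lower (BAX, PMAIP1 and BIK). Among all genes tested in this line, 33.3% were called higher and 41.5% lower, so most genes were called. The CSC and non-CSC libraries did not overlap for 8 of the 8 genes, against 78.7% of all genes tested. In HCC1937 7 genes were tested, since BCL2 was under the minimum mean of 0.1 FPKM, and 3 were lower in CSCs (BCL2L1, BID and BIK), none higher and 4 not called. There 10.3% of all genes were called higher and 15.3% lower, and the fractions did not overlap for 4 of the 7 genes against 43.4% of all genes. The call of BCL2L1 in HCC1937 was lost with TPM rescaling and without any 1 of 5 of the 6 libraries, as given with its values; BID and BIK were called in each of these. Of the genes called in both lines, BIK was thus lower in the CSCs of both, and BCL2L1 and BID were called in opposite directions. MCL1 was higher in the CSCs of both lines with no overlap (0.62 in SUM149PT and 0.20 in HCC1937), but was not called in HCC1937. In bulk libraries, fewer cells that express a gene and less RNA of it per cell cannot be told apart.

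A stricter cutoff was modelled on the study's, with its limit of 1e-04 for the adjusted p and, where the study names an enrichment score, a log2 difference of 1 or more in size. It was passed in SUM149PT by PMAIP1 and BIK, 2 of 8, against 20.5% of all genes. In HCC1937 it was passed by 0 genes of the 15582 tested with limma, which is 0% of them, where the smallest adjusted p was 0.000128, while 5886 genes passed 0.05 before adjustment and 3985 after it. Of the 7 genes tested there, 4 passed 0.05 before adjustment. An exact permutation test of 3 against 3 libraries, two-sided, cannot give a p under 0.10, and it gave 0.10 for each of the 8 genes in SUM149PT. The test of the difference between the lines' CSC effects called 7 of the 8 genes, against 61.1% of all genes. These include BCL2, which was too low to test in HCC1937 and entered the fit of 12 libraries through SUM149PT, so 6 of the 7 genes tested in both lines were called, with BAX at an adjusted p of 0.0559. The split of all calls depended on the scaling: 44.6% of the SUM149PT calls were higher as deposited and 54.9% after quantile normalization, and in HCC1937 the share was 40.3% as deposited, 56.1% after TPM rescaling and 53% after quantile normalization. Under these scalings the 8 genes kept their directions and calls in SUM149PT, and BID and BIK kept theirs in HCC1937.

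**Figure D1:**
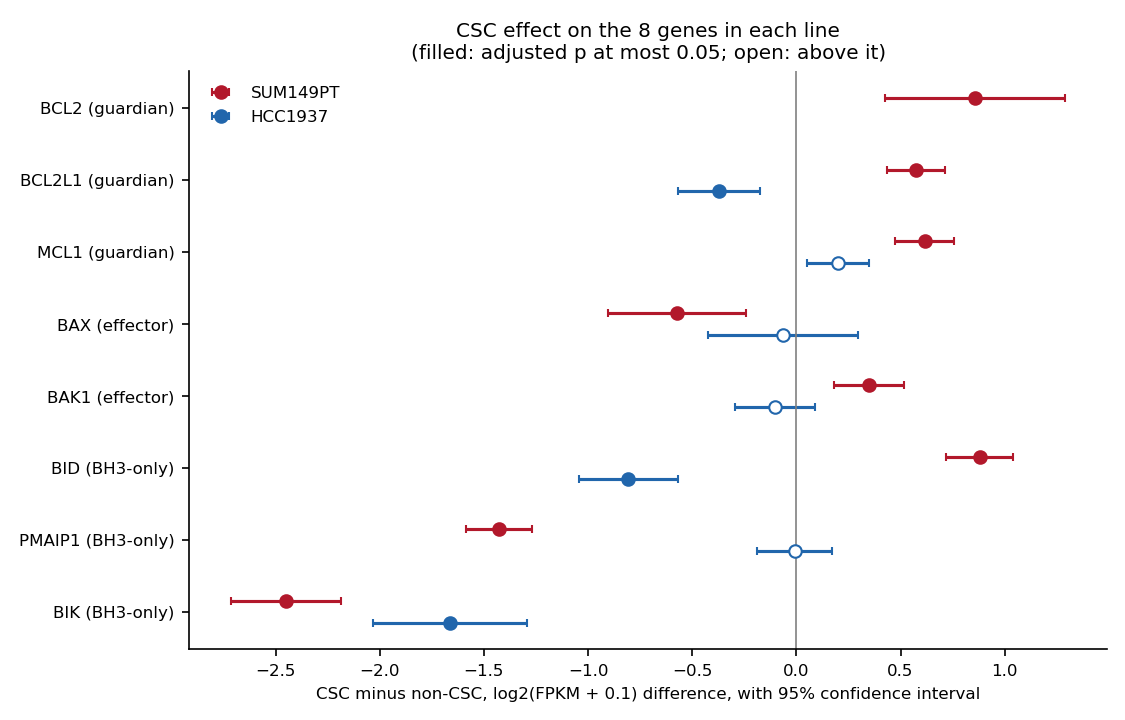
The CSC effect on each gene, as the CSC minus non-CSC difference of log2(FPKM + 0.1) on the horizontal axis with its 95% confidence interval, in SUM149PT (red) and HCC1937 (blue). Filled points passed an adjusted p of 0.05. Of the genes called in both lines, BIK lay left of 0 in both, and BID and BCL2L1 lay on opposite sides. MCL1 lay right of 0 in both lines and was not called in HCC1937, and BCL2 was not tested in HCC1937.

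The guardians come first, and MCL1 was the most abundant of them in the sorted cells. MCL1 lies on the reverse strand at chr1:150574551-150579738 of GRCh38, and its exons share sequence with ADAMTSL4-AS1 on the same strand, so reads from the shared stretch cannot be told apart. In the 3 libraries of SUM149PT CSCs MCL1 measured 174, 169 and 172 FPKM, and in the non-CSCs 115, 114 and 107 FPKM. HCC1937 CSCs had 75.1, 74.1 and 78.0 FPKM and HCC1937 non-CSCs 66.4, 66.0 and 65.2 FPKM of MCL1. SUM159PT had 18.3, 19.1 and 18.5 FPKM. The 5 groups did not overlap, in the order SUM149PT CSC, SUM149PT non-CSC, HCC1937 CSC, HCC1937 non-CSC and SUM159PT, with a 9.20-fold span between the highest and the lowest group mean. By mean FPKM, MCL1 ranked 248 of 33158 genes in SUM149PT CSCs and 2619 in SUM159PT. MCL1 was 1.53-fold higher in SUM149PT CSCs than in non-CSCs (log2 difference 0.62, SE 0.0571, adjusted p 1.92e-04, higher in 3 of 3 libraries). In HCC1937 the difference was 0.20 (95% confidence interval 0.05 to 0.35) with an adjusted p of 0.0620, which missed the threshold, although the fractions did not overlap. It passed under 9 of 13 other settings, over which the adjusted p ran from 0.0110 to 0.132. The effect differed between the lines by 0.41 (adjusted p 6.40e-04).

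BCL2L1, the gene of BCL-XL, was the guardian that rose in 1 line's CSCs and fell in the other's. It lies on the reverse strand at chr20:31664452-31723989, and ABALON overlaps its exons on the opposite strand; whether the values use the strand is not given in the sources used here, and 1 value per gene does not separate its long and short splice forms. BCL2L1 levels were 41.7, 42.9 and 43.9 FPKM in SUM149PT CSCs and 28.3, 29.8 and 28.1 FPKM in SUM149PT non-CSCs. The HCC1937 CSC libraries held 49.4, 45.1 and 42.5 FPKM, and the non-CSC libraries 60.5, 58.0 and 58.4 FPKM. The SUM159PT libraries held 167, 168 and 184 FPKM. SUM159PT was highest and SUM149PT non-CSCs lowest, while HCC1937 CSCs and SUM149PT CSCs, next to each other in the order, overlapped (exact permutation test, two-sided, p = 0.30). In SUM149PT the CSCs were 1.49-fold higher (log2 difference 0.57, SE 0.0556, adjusted p 2.30e-04, 3 of 3 libraries), and in HCC1937 they were 1.29-fold lower (log2 difference -0.37, SE 0.0793, adjusted p 0.0210, 3 of 3 libraries). The difference between these effects was 0.95 (SE 0.0897, adjusted p 1.05e-05). The HCC1937 call was lost without non-CSC replicate 1 (adjusted p 0.0779), 2 (0.0669) or 3 (0.0598) or CSC replicate 2 (0.0719) or 3 (0.0591), with differences of -0.38 to -0.32, and with TPM rescaling (-0.25, adjusted p 0.0590). TPM rescaling moved the median of all genes in HCC1937 from -0.03 to 0.09, and relative to that median the BCL2L1 difference was -0.35 to -0.29 over 6 scalings.

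BCL2, the founding member of the family, was near the floor of the measurement. It lies on the reverse strand at chr18:63123346-63320128. SUM149PT CSCs had 0.361, 0.387 and 0.531 FPKM and SUM149PT non-CSCs 0.155, 0.168 and 0.249 FPKM of BCL2. Levels in HCC1937 were 0.0575, 0.0256 and 0.0284 FPKM in CSCs and 0.00475, 0.00851 and 0.0287 FPKM in non-CSCs. In SUM159PT they were 0.478, 0.494 and 0.625 FPKM. No library reached 1 FPKM; SUM159PT overlapped SUM149PT CSCs and the HCC1937 fractions overlapped each other (exact permutation test, two-sided, p = 0.30 in both cases), while the other neighbours did not overlap. BCL2 was 1.81-fold higher in SUM149PT CSCs (log2 difference 0.86, 95% confidence interval 0.42 to 1.29, adjusted p 0.00542), a value that moved between 0.26 and 1.47 with the pseudocount and the other settings. The difference between the lines, 0.59 with an adjusted p of 0.0456, was close to the threshold and is not read as a difference of the CSC effect, since the HCC1937 levels lie under the 0.1 FPKM added to each value. By group means, CSCs over non-CSCs, BCL2 was 2.24-fold in SUM149PT and 2.66-fold in HCC1937. The call was lost with a pseudocount of 0.01 (0.09, adjusted p 0.903), with TPM rescaling, with no expression minimum or with a trend in eBayes. It was also lost without SUM149PT CSC replicate 2 or 3, SUM149PT non-CSC replicate 1 or 2, HCC1937 CSC replicate 2 or 3, or HCC1937 non-CSC replicate 2 or 3, at differences of 0.45 to 0.64 and adjusted p-values of 0.0546 to 0.102.

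**Figure D2:**
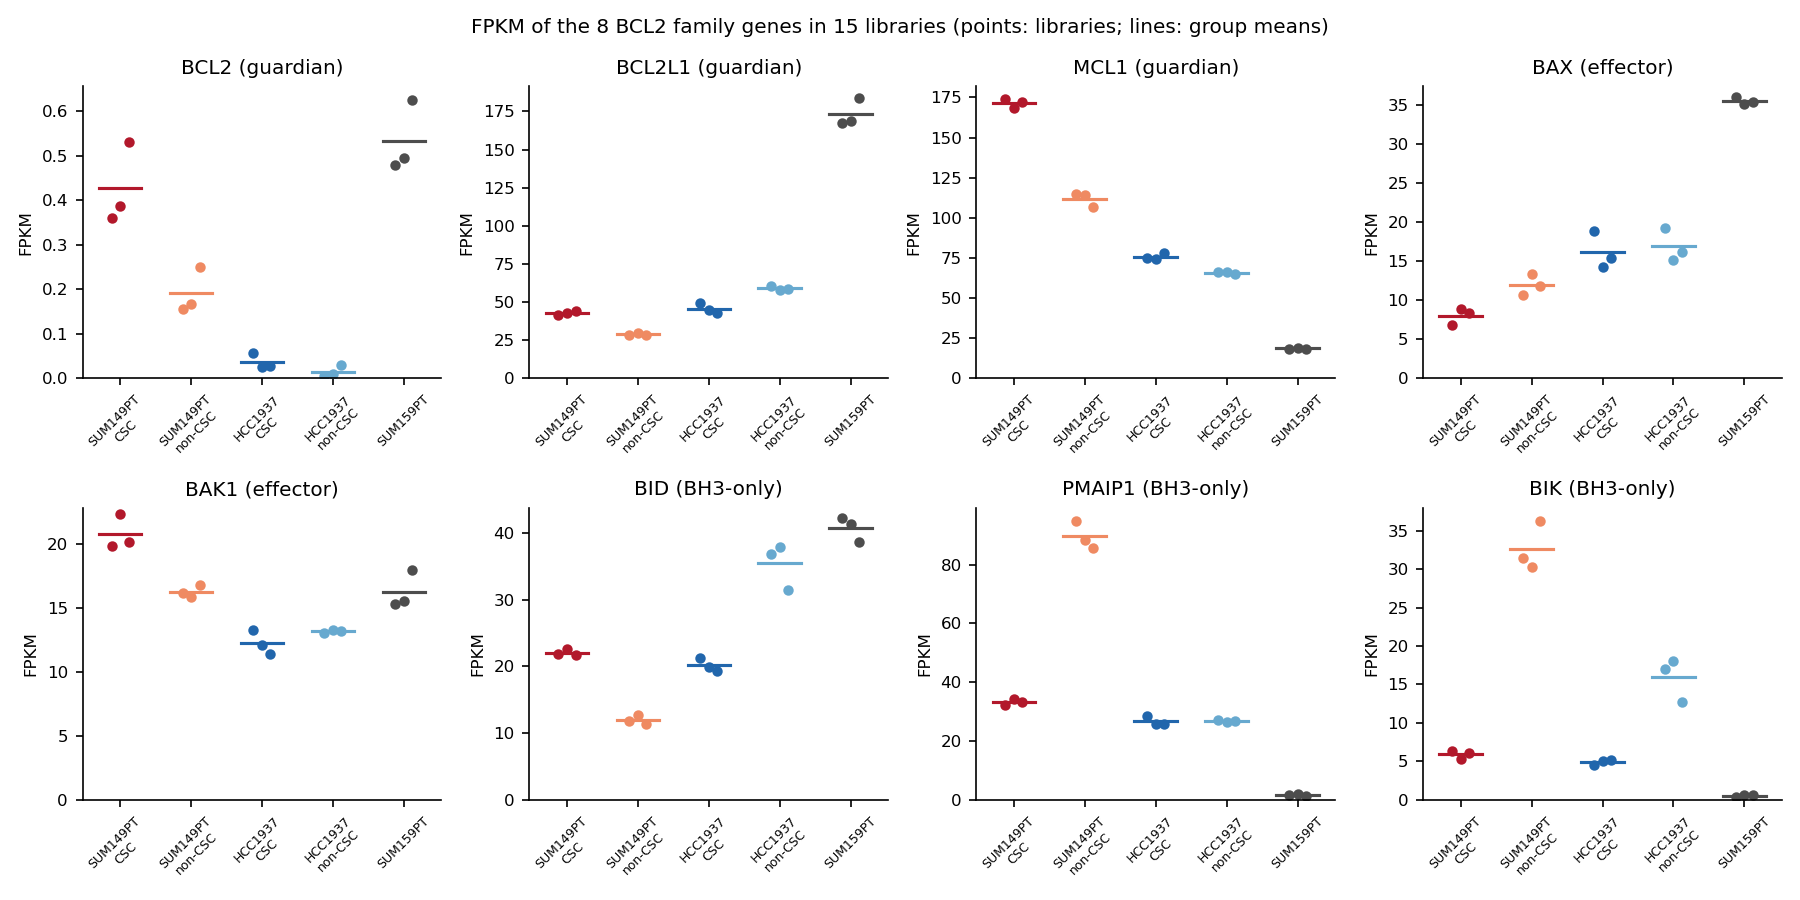
FPKM (vertical axis, from 0, with its own scale in each panel) of each of the 8 genes in the 15 libraries, grouped by line and fraction on the horizontal axis. Points are libraries and lines are means of 3; BCL2L1 and BAX are highest and MCL1, PMAIP1 and BIK lowest in SUM159PT, and PMAIP1 and BIK are highest in SUM149PT non-CSCs.

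The guardians together summed to 212 to 216 FPKM in SUM149PT CSCs, 135 to 144 FPKM in SUM149PT non-CSCs, 119 to 125 FPKM in HCC1937 CSCs, 124 to 127 FPKM in HCC1937 non-CSCs and 186 to 203 FPKM in SUM159PT. MCL1 made up a median of 79.6% of it in SUM149PT CSCs and 79.2% in SUM149PT non-CSCs, and the ranges of these fractions overlapped (79.5% to 80.6% against 79.0% to 80.2%). In HCC1937 MCL1 had a median share of 62.2% in CSCs (60.3% to 64.7%) and 52.7% in non-CSCs (52.3% to 53.2%), with no overlap. In SUM159PT the MCL1 share was 9.83% (9.13% to 10.2%) and BCL2L1 made up 89.9% (89.6% to 90.6%). BCL2 stayed at 0.308% or less of the sum in all 15 libraries. These shares compare levels within a library and do not change with a factor applied to the whole library; no test was run on them. They do change with a correction that differs between genes. With a GC trend removed, the MCL1 difference of SUM159PT from SUM149PT CSCs was -1.43, against -3.20 as deposited. The BCL2L1 difference was 1.62, against 2.01, so the SUM159PT shares given here do not hold under that correction.

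Of the effectors, BAX lies on the forward strand at chr19:48954815-48961798 and BAK1 on the reverse strand at chr6:33572547-33580293. BAK1 exons overlap GGNBP1 on the opposite strand, and the annotation lists the pseudogenes BAK1P1 and BAK1P2, so its reads may be split with these. BAX was measured at 6.80, 8.88 and 8.34 FPKM in SUM149PT CSCs and 10.6, 13.3 and 11.8 FPKM in SUM149PT non-CSCs. For HCC1937 the BAX values were 18.9, 14.2 and 15.4 FPKM in CSCs and 19.3, 15.2 and 16.2 FPKM in non-CSCs. For SUM159PT they were 35.9, 35.1 and 35.4 FPKM. SUM159PT was highest and SUM149PT CSCs lowest, and the HCC1937 fractions overlapped (exact permutation test, two-sided, p = 0.60). BAX was 1.49-fold lower in SUM149PT CSCs (log2 difference -0.57, SE 0.134, adjusted p 0.00953, lower in 3 of 3 libraries). That call was lost after removal of a trend on GC content (-0.28, adjusted p 0.0637), and held under the other 12 alternatives. With single libraries left out the adjusted p ran from 0.0128 to 0.0301. In HCC1937 the difference was -0.07 (95% confidence interval -0.43 to 0.29, adjusted p 0.781), and its sign changed without non-CSC replicate 1 (0.03) or CSC replicate 2 (0.02). The difference between the lines was -0.51 (95% confidence interval -0.97 to -0.04) and was not called. It was called with 9 of 13 other settings, and without SUM149PT CSC replicate 2 (-0.58, adjusted p 0.0448), SUM149PT non-CSC replicate 1 (-0.59, 0.0440), HCC1937 CSC replicate 2 (-0.59, 0.0380) or HCC1937 non-CSC replicate 1 (-0.60, 0.0333).

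On the deposited scale BAK1 varied least of the 8 genes, with a 1.69-fold span between group means. Its levels were 19.8, 22.3 and 20.2 FPKM in SUM149PT CSCs and 16.1, 15.9 and 16.7 FPKM in SUM149PT non-CSCs. The HCC1937 values were 13.3, 12.1 and 11.4 FPKM in CSCs and 13.0, 13.2 and 13.2 FPKM in non-CSCs, and those of SUM159PT 15.3, 15.5 and 17.9 FPKM. SUM149PT CSCs were highest without overlap, SUM159PT overlapped SUM149PT non-CSCs (exact permutation test, two-sided, p = 1) and the HCC1937 fractions overlapped each other (p = 0.40 by the same exact test). In SUM149PT the CSCs were 1.27-fold higher (log2 difference 0.35, SE 0.0678, adjusted p 0.00447, 3 of 3 libraries), while in HCC1937 the difference was -0.10 (adjusted p 0.391). The lines differed in this effect by 0.45 (adjusted p 0.00253). With BAX lower and BAK1 higher in SUM149PT CSCs, the share of BAX in the sum of the 2 effectors was 25.5% to 29.3% there and 39.7% to 45.7% in the non-CSCs, with no overlap. In HCC1937 the BAX share was 54.0% to 58.7% in CSCs and 53.4% to 59.6% in non-CSCs, and in SUM159PT 66.4% to 70.2%. The summed FPKM of both effectors was 26.6 to 31.2 in SUM149PT CSCs and 26.8 to 29.2 in SUM149PT non-CSCs, with overlapping ranges.

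Among the BH3-only genes, BIK had the largest difference between fractions of the 8 genes in both lines, and PMAIP1 the next in SUM149PT. BIK, whose protein sits mainly at the endoplasmic reticulum, lies on the forward strand at chr22:43110748-43129712. BIK values were 6.34, 5.26 and 6.08 FPKM in SUM149PT CSCs and 31.5, 30.2 and 36.2 FPKM in SUM149PT non-CSCs. The HCC1937 libraries had 4.56, 4.98 and 5.22 FPKM in CSCs and 17.0, 18.1 and 12.8 FPKM in non-CSCs. SUM159PT had 0.389, 0.630 and 0.629 FPKM of BIK. The 5 groups did not overlap: both non-CSC groups were highest, the CSC groups followed, and SUM159PT was lowest. The 2 CSC groups nearly touched, at 5.26 and 5.22 FPKM, and the contrast between them was not called, so they are not read as ordered. The share of all genes with 5 separate groups, as also seen for MCL1 and BID, was not counted. BIK was 5.47-fold lower in SUM149PT CSCs (log2 difference -2.45, SE 0.106, adjusted p 1.11e-05) and 3.17-fold lower in HCC1937 CSCs (log2 difference -1.66, SE 0.149, adjusted p 0.00110), in 3 of 3 libraries of each line. The fall was larger in SUM149PT, with a difference between the lines of -0.79 (95% confidence interval -1.22 to -0.36, adjusted p 0.00488). Both calls held under the 13 alternatives and with any 1 library left out, while the stricter cutoff was passed in SUM149PT and not in HCC1937.

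PMAIP1, the gene of NOXA, lies on the forward strand at chr18:59899948-59904306. Its levels in SUM149PT were 32.3, 34.3 and 33.1 FPKM in CSCs and 94.7, 88.4 and 85.8 FPKM in non-CSCs. HCC1937 had 28.6, 25.7 and 25.7 FPKM of PMAIP1 in CSCs and 27.1, 26.3 and 26.9 FPKM in non-CSCs. In SUM159PT the level was 1.71, 2.05 and 1.24 FPKM. SUM149PT non-CSCs stood above all other groups and SUM159PT below them, and the HCC1937 fractions overlapped (exact permutation test, two-sided, p = 1). PMAIP1 was 2.69-fold lower in SUM149PT CSCs (log2 difference -1.43, SE 0.0630, adjusted p 1.19e-05, 3 of 3 libraries). In HCC1937 the difference was -0.01 (95% confidence interval -0.19 to 0.17, adjusted p 0.945), and its sign changed without non-CSC replicate 1 (0.00091), CSC replicate 2 (0.02) or CSC replicate 3 (0.02). The difference between the lines was -1.42 (SE 0.0883, adjusted p 6.07e-07).

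BID links the death receptors to the mitochondrion, since caspase-8 cleaves it into an active form; the gene lies on the reverse strand at chr22:17734138-17774770. The BID level was 21.9, 22.7 and 21.7 FPKM in SUM149PT CSCs and 11.8, 12.7 and 11.4 FPKM in SUM149PT non-CSCs. In HCC1937 it was 21.2, 19.9 and 19.3 FPKM in CSCs and 36.9, 37.9 and 31.5 FPKM in non-CSCs, and in SUM159PT 42.3, 41.4 and 38.6 FPKM. The 5 groups did not overlap, and the order ran from SUM159PT through HCC1937 non-CSC, SUM149PT CSC and HCC1937 CSC to SUM149PT non-CSC, so the CSCs of the 2 lines were close (means 22.1 and 20.1 FPKM) and the non-CSCs far apart (35.4 and 11.96 FPKM). BID was 1.84-fold higher in SUM149PT CSCs (log2 difference 0.88, SE 0.0647, adjusted p 7.47e-05) and 1.75-fold lower in HCC1937 CSCs (log2 difference -0.81, SE 0.0959, adjusted p 0.00271), in 3 of 3 libraries of each line. The difference between the lines was 1.69 (SE 0.113, adjusted p 9.73e-07), the largest in size among the 8 genes. Neither BID call changed under the 13 alternatives or with any 1 library left out, and neither passed the stricter cutoff.

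The makeup of the BH3-only sum followed these levels. In SUM149PT BID made up 35.6% to 36.5% of the summed FPKM of BID, PMAIP1 and BIK in CSCs and 8.52% to 9.69% in non-CSCs, while the PMAIP1 share was 53.4% to 55.1% in CSCs and 64.3% to 68.6% in non-CSCs. The HCC1937 CSCs had 38.5% to 39.4% BID and 50.8% to 52.6% PMAIP1, near the values of the SUM149PT CSCs, and the HCC1937 non-CSCs 44.2% to 46.1% BID and 31.9% to 37.8% PMAIP1. BIK took 8.46% to 10.5% in SUM149PT CSCs and 22.8% to 27.2% in SUM149PT non-CSCs, and 8.40% to 10.4% in HCC1937 CSCs against 17.9% to 22.0% in HCC1937 non-CSCs. SUM159PT was made up of BID at 93.9% to 95.4%. The sum itself was 60.6 to 62.2 FPKM in SUM149PT CSCs, 131 to 138 FPKM in SUM149PT non-CSCs, 50.3 to 54.3 FPKM in HCC1937 CSCs, 71.2 to 82.3 FPKM in HCC1937 non-CSCs and 40.5 to 44.4 FPKM in SUM159PT, so it was lower in the CSCs of both lines, with no overlap.

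**Figure D3:**
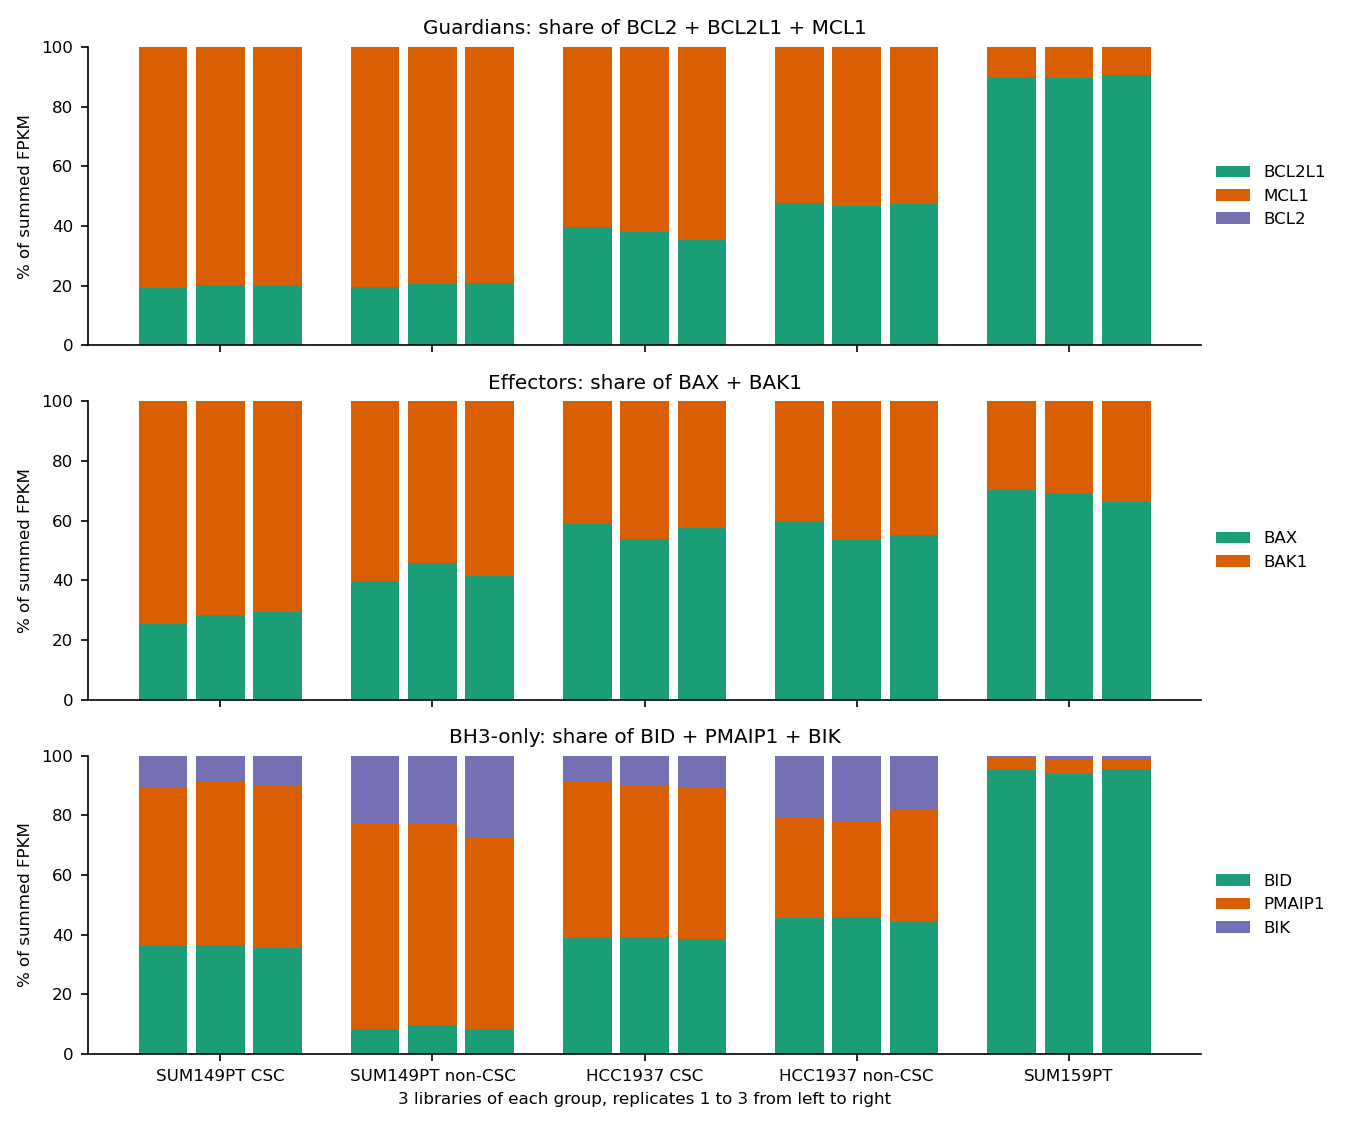
Share of each gene in the summed FPKM of its role, in percent, for the 15 libraries (bars, 3 to a group). MCL1 makes up most of the guardian sum in SUM149PT and BCL2L1 most of it in SUM159PT, while the BID share is lowest in SUM149PT non-CSCs, at 8.52% to 9.69%, and highest in SUM159PT.

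Ratios within a library were also formed, with no test. The BAX to BCL2 ratio, a common readout of the balance between death and survival, was 15.7 to 22.9 in SUM149PT CSCs and 47.4 to 79.6 in SUM149PT non-CSCs, with no overlap. It was 328 to 553 in HCC1937 CSCs, 564 to 4053 in HCC1937 non-CSCs and 56.6 to 75.1 in SUM159PT. The HCC1937 ratios rest on BCL2 values of 0.0575 FPKM or less, and with 0.1 FPKM added to each term their medians were 120.5 in CSCs and 141 in non-CSCs, against 14.98 and 42.2 in SUM149PT. The MCL1 to PMAIP1 ratio sets a guardian against the BH3-only protein known to bind it. In SUM149PT it was 4.92 to 5.39 in CSCs and 1.22 to 1.29 in non-CSCs, in HCC1937 2.63 to 3.03 in CSCs and 2.42 to 2.51 in non-CSCs, and in SUM159PT 9.33 to 14.99. As deposited, the CSC libraries were above the non-CSC libraries in both lines, and SUM159PT was above all sorted libraries. The place of SUM159PT against SUM149PT CSCs on these ratios depended on the correction. A factor applied to a whole library leaves a ratio as it is. With quantile normalization, the difference from SUM149PT CSCs was -3.27 for MCL1 and -3.22 for PMAIP1. The MCL1 to PMAIP1 ratio was then not higher in SUM159PT. It was higher with a GC trend removed (-1.43 and -1.85) and with a length trend removed (-1.64 and -3.71). The BAX to BCL2 ratio was not higher with a GC trend removed, at differences of 1.51 for BAX and 1.93 for BCL2. It was higher with quantile normalization (2.12 and 1.67) and with a length trend removed (2.41 and 2.23). These are ratios of mRNA, not of protein.

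The promoters of BAX and PMAIP1, genes lower in SUM149PT CSCs, are shown to place their levels beside the sequence; BIK and MCL1 are named without one. For 6 of the 8 genes the RefSeq promoter table (GRCh38.p14) gave a match, and 4 motifs were searched on both strands in the 250 bases before each listed start: the GC box GGGCGG, the CCAAT box CCAAT, the TATA box TATAAA and the E-box CACGTG, none of which contains another. Of 35116 promoters of this length, 42.6% held a GC box, 32.0% a CCAAT box, 10.7% a TATA box and 6.34% an E-box. The BAX window, chr19:48954625-48954874 on the forward strand, had 4 E-boxes, 2 CCAAT boxes and 1 GC box, and 25 CpG pairs against a median of 11. The PMAIP1 window, chr18:59899746-59899995 on the forward strand, had 4 GC boxes and no match to the other 3 motifs, and 36 CpG pairs. Only the bases before the first base of the gene in the GENCODE annotation are printed, chr19:48954625-48954814 for BAX, with 2 of the E-boxes in capitals, and chr18:59899746-59899947 for PMAIP1, with its GC boxes, either strand, in capitals. A match describes letters and no more.
BAX: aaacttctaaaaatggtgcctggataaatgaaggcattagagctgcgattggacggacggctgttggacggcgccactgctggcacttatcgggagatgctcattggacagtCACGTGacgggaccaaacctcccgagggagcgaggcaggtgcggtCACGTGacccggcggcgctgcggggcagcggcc
PMAIP1: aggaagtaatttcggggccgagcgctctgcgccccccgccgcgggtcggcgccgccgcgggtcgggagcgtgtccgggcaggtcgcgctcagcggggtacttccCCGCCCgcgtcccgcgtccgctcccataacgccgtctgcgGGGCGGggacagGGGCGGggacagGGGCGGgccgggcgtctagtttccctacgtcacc

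Between the lines, the contrasts of CSCs with CSCs and of non-CSCs with non-CSCs separated the 8 genes further. Among the HCC1937 CSCs, BAX was higher than in SUM149PT CSCs (2.00-fold, log2 difference 1.002, adjusted p 1.77e-05), which is 1 gene of 8 against 45.1% of all genes. BCL2, MCL1, BAK1 and PMAIP1 were lower, 4 of 8 (3 of 7 without BCL2) against 31.8%, with log2 differences of -1.93, -1.18, -0.76 and -0.32. The BCL2 value rests on HCC1937 levels under the added 0.1 FPKM and ran from -3.25 to -0.46 over 12 settings, called in each. PMAIP1 was near the threshold (adjusted p 0.0417). The call was lost with a pseudocount of 0.01, with no expression minimum, and without replicate 1, 2 or 3 of SUM149PT CSC, 2 or 3 of SUM149PT non-CSC, 2 or 3 of HCC1937 CSC, 1, 2 or 3 of HCC1937 non-CSC or 1 of SUM159PT, at differences of -0.34 to -0.29 and adjusted p-values of 0.0501 to 0.102. BCL2L1, BID and BIK were not called, with log2 differences of 0.09, -0.13 and -0.25; the median of all genes was 0.22, and relative to it the values were -0.13, -0.35 and -0.47. That median moved to 0.04 with upper quartile scaling, to 0.05 with quantile normalization and to -0.01 with a GC trend removed. BID was called lower under 5 alternatives (adjusted p 0.000515 to 0.172 over 13) and BIK under 4 (0.00578 to 0.226 over 13). Among the non-CSCs, BCL2L1, BAX and BID were higher in HCC1937, 3 of 8 against 41.4% of all genes, at 1.03, 0.50 and 1.56 (adjusted p 1.84e-08, 0.00463 and 1.95e-09). The other 5 were lower (4 of 7 without BCL2), against 35.4% of all genes, from -0.30 for BAK1 to -1.74 for PMAIP1. The BCL2 difference there ran from -3.16 to -0.23 over 12 settings, called in each. The directions of the called genes in both contrasts held under all scalings tried, while that of BCL2L1 between the CSCs changed sign under 4 of them. BCL2L1 was called lower in HCC1937 CSCs with a GC trend removed (-0.248, adjusted p 0.00100) and with a length trend removed (-0.249, adjusted p 0.00161). With either trend removed all 8 genes were called between the CSCs.

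SUM159PT was set against both CSC groups, in contrasts that share the SUM159PT libraries. The SUM159PT cells were not sorted and both CSC groups were, so line and sorting cannot be told apart in these contrasts. Relative to SUM149PT CSCs, BCL2L1 (4.03-fold), BAX (4.41-fold) and BID (1.84-fold) were higher, 3 of 8 against 28.3% of all genes, with adjusted p-values of 9.72e-12, 5.81e-09 and 2.44e-07. MCL1 (9.16-fold), PMAIP1 (19.2-fold), BIK (9.35-fold) and BAK1 (1.28-fold) were lower, 4 of 8 against 53.3%, with adjusted p-values of 4.25e-14, 4.75e-12, 8.05e-10 and 0.00108. The median gene was lower in SUM159PT by a log2 difference of -0.60 as deposited and of -1.63 after TPM rescaling, so the differences relative to that median were also taken. They were 0.88 for BCL2, 0.25 for BAK1, 2.62 for BCL2L1, 2.75 for BAX, 1.48 for BID, -2.59 for MCL1, -3.66 for PMAIP1 and -2.62 for BIK as deposited. Over 6 scalings these relative differences kept their signs, at 1.23 to 2.77 for BCL2L1, 1.56 to 2.90 for BAX, 0.55 to 1.96 for BID, -3.32 to -1.38 for MCL1, -3.79 to -1.80 for PMAIP1 and -3.51 to -1.74 for BIK. BAK1 did not keep its sign (-0.85 to 0.46), and with a length trend removed it was called higher (0.54, adjusted p 9.78e-06), so its place among the 4 lower genes rests on the scaling. BCL2, at 0.88 to 2.15 relative to the median, was not called as deposited (0.27, adjusted p 0.133). It was called higher with upper quartile scaling (0.65, adjusted p 0.00184), quantile normalization (1.67, 1.01e-07), a GC trend removed (1.93, 9.17e-08), a length trend removed (2.23, 1.25e-08) and without SUM149PT CSC replicate 3 (0.41, 0.0351), and lower with TPM rescaling (-0.69, 0.0157). Without the median taken off, TPM rescaling turned BID to -0.21 (adjusted p 0.0160), called lower, so the BID call too rests on the scaling.

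Relative to HCC1937 CSCs, BCL2, BCL2L1, BAX, BAK1 and BID were called higher in SUM159PT, 5 of 8 (4 of 7 without BCL2) against 27.6% of all genes, and MCL1, PMAIP1 and BIK lower, 3 of 8 against 57.2%. The log2 differences were 2.21, 1.92, 1.14, 0.40 and 1.01 for the first 5 and -2.02, -3.95 and -2.97 for the others. The BCL2 value, from HCC1937 levels under the added 0.1 FPKM, ran from 0.56 to 4.15 over 12 settings. The median of all genes was -0.85 as deposited and -1.83 after TPM rescaling. Relative to the deposited median the differences were 3.05, 2.77, 1.99, 1.25 and 1.86 for the first 5 and -1.17, -3.10 and -2.12 for the others. That rescaling turned BAK1 to -0.60 and left BAX (0.14, adjusted p 0.324) and BID (0.01, adjusted p 0.912) uncalled, while relative to the median all 8 genes kept their signs over 6 scalings, at 3.01 to 4.07 for BCL2, 1.36 to 2.92 for BCL2L1, 0.84 to 2.14 for BAX, 0.19 to 1.42 for BAK1, 0.94 to 2.25 for BID, -1.97 to -0.13 for MCL1, -3.20 to -1.38 for PMAIP1 and -2.97 to -1.28 for BIK. The share of all calls that were higher was 34.7% against SUM149PT CSCs as deposited, 17.3% after TPM rescaling, 50.6% after quantile normalization, 48.8% with a GC trend removed and 51.1% with a length trend removed; against HCC1937 CSCs it was 32.5%, 17.1%, 50.1%, 49.9% and 51.6%, and 42.9% with upper quartile scaling.

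The protein of CASP6 is a caspase that acts after the mitochondrial step. The gene had means of 1.78 FPKM in SUM149PT CSCs, 3.11 FPKM in SUM149PT non-CSCs, 2.64 FPKM in HCC1937 CSCs and 3.65 FPKM in HCC1937 non-CSCs, with CSC and non-CSC libraries apart in each line. It was lower in the CSCs of SUM149PT (log2 difference -0.77, adjusted p 0.00136) and of HCC1937 (-0.45, adjusted p 0.0428).

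The other apoptosis genes, 41 in 9 lists, were split in SUM149PT: of 40 tested, 17 were higher in CSCs, 17 lower and 6 not called, with a median log2 difference of 0.11 against -0.11 over all genes. Of all genes 33.3% were called higher and 41.5% lower there. In HCC1937 39 were tested, of which 3 were higher, 6 lower and 30 not called, with a median of -0.12 against -0.03, where 10.3% of all genes were called higher and 15.3% lower. These shares apply to the counts of each list below. Among the other BH3-only genes, 3 of 6 were higher in SUM149PT CSCs (BBC3, BMF and BNIP3) and 3 lower (BAD, BCL2L11 and HRK), while in HCC1937 BMF alone was called, lower. BBC3, the gene of PUMA, had 46.7, 55.4 and 49.1 FPKM in SUM149PT CSCs and 19.5, 21.3 and 19.9 FPKM in the non-CSCs, with no overlap (log2 difference 1.31, adjusted p 4.48e-05), and -0.45 in HCC1937 (adjusted p 0.0568). BMF differed by 0.50 in SUM149PT and -0.74 in HCC1937 (difference between the lines 1.25, adjusted p 1.51e-05). HRK was listed at 0 in the 3 SUM149PT CSC libraries and at 1.53, 2.38 and 1.34 FPKM in the non-CSCs. BOK, a relative of BAX and BAK, was lower in the CSCs of SUM149PT (-1.33, adjusted p 1.17e-05) and of HCC1937 (-0.74, adjusted p 0.0233). Its list of other effectors and related genes gave 1 of 3 tested higher and 2 lower (BOK and BCL2L14) in SUM149PT. BCL2L14 had means of 0.0337 FPKM in SUM149PT CSCs and 0.234 FPKM in the non-CSCs. Like HRK, it passed the minimum mean only through the non-CSCs, so the direction of both followed from the filter and is no result. Both are among the 17 lower genes. In HCC1937 the list gave 1 of 2 tested lower and 1 not called. Of the guardians outside the 8, BCL2A1 was lower in SUM149PT CSCs (-0.70, adjusted p 0.00655) and BCL2L2 in HCC1937 CSCs (-0.40, adjusted p 0.0124), 1 of 3 in each line.

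The inhibitors of apoptosis, proteins that bind caspases or mark signalling proteins with ubiquitin, were called higher in SUM149PT CSCs for 4 of 5 genes (XIAP, BIRC2, BIRC3 and BIRC5), against 33.3% of all genes, with a list median of 0.74 against -0.11 over all genes. BIRC3 had 78.7, 74.2 and 73.7 FPKM in SUM149PT CSCs and 21.7, 19.7 and 21.9 FPKM in the non-CSCs, a log2 difference of 1.84 (adjusted p 6.69e-06) with no overlap. In HCC1937 BIRC2 was higher (0.38, adjusted p 0.0113) and the other 4 were not called, and the BIRC3 effect differed between the lines by 2.04 (adjusted p 9.74e-08). Initiator caspases were split in SUM149PT, where CASP8 (1.14) and CASP10 (0.31) were higher and CASP9 (-1.67) and CASP2 (-0.97) lower in CSCs, while in HCC1937 CASP10 was lower (-0.90, adjusted p 0.00286) and the other 3 were not called. CASP8, whose protein cleaves BID, was at 6.94 FPKM in SUM149PT CSCs and 3.12 FPKM in SUM149PT non-CSCs (means of 3). For the apoptosome and mitochondrial release, 3 of 7 genes were higher and 3 lower in SUM149PT CSCs, and 0 of 7 were called with limma in HCC1937, with adjusted p-values of 0.220 to 0.853. Of the death receptor arm, 3 of 8 were higher and 4 lower in SUM149PT, and 2 higher (TNFRSF1A and TNFRSF10B) and 1 lower (TRADD) in HCC1937. The ubiquitin genes that act on MCL1 gave 1 of 3 higher (HUWE1, 0.33) and 1 lower (FBXW7, -1.98, adjusted p 4.82e-06) in SUM149PT CSCs, and 0 of 3 called in HCC1937 with limma (adjusted p 0.190 to 0.835).

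**Figure D4:**
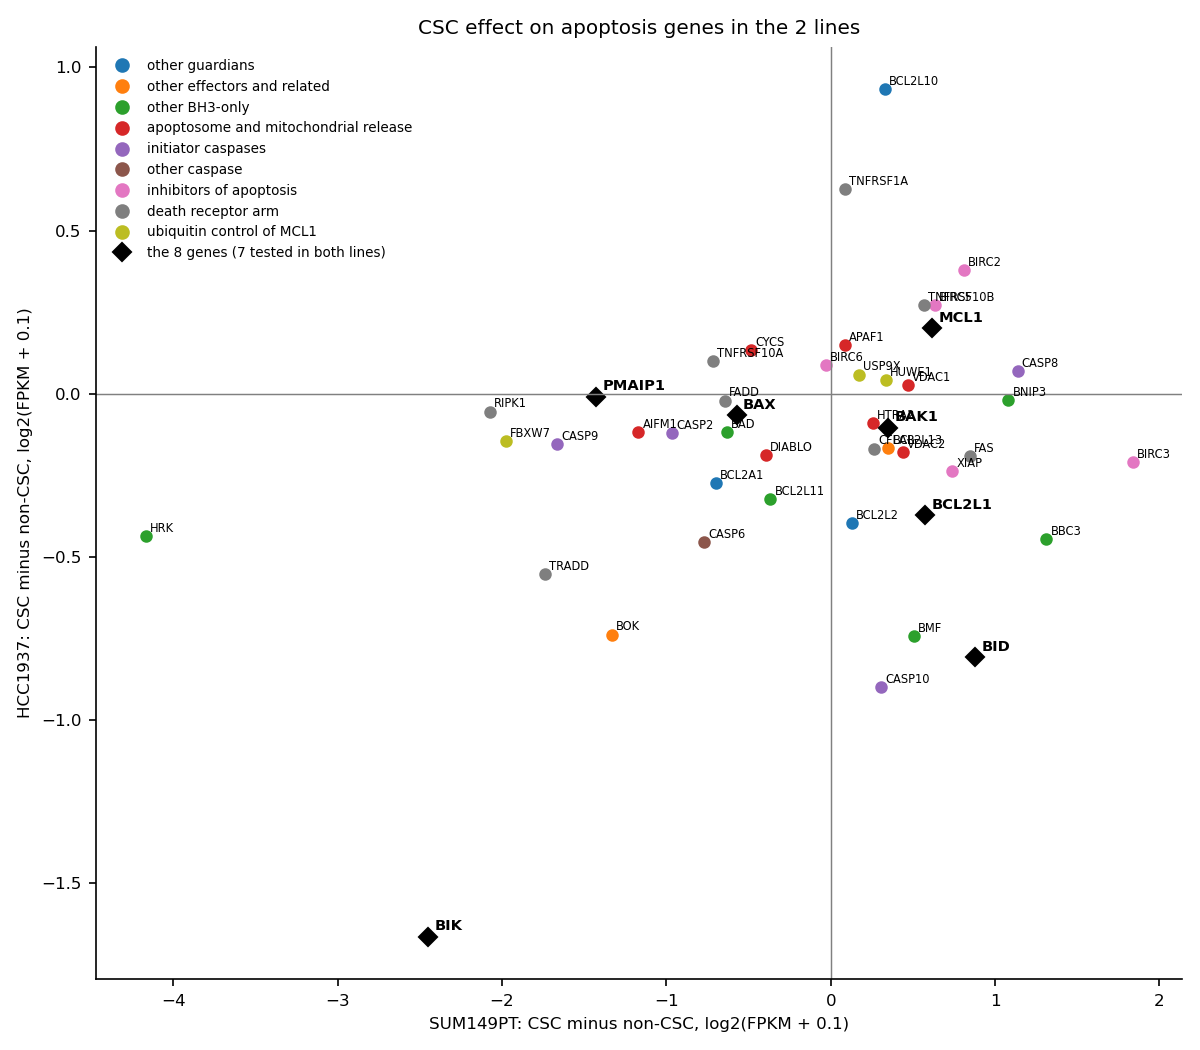
CSC minus non-CSC differences of log2(FPKM + 0.1) in SUM149PT (horizontal axis) and HCC1937 (vertical axis) for the 39 other apoptosis genes tested in both lines (circles, coloured by list) and 7 of the 8 BCL2 family genes (black diamonds). BIK lies in the lower left with BOK, CASP6 and others. BID and BCL2L1 lie in the lower right with BMF, CASP10, BBC3, BIRC3, BAK1 and others, and the spread is wider along the SUM149PT axis.

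The fractions were checked against the markers of the sort and of cell identity. CD24 was 7.74 FPKM in SUM149PT CSCs against 139 in non-CSCs (log2 difference -4.15, adjusted p 1.40e-06) and 23.3 against 150.04 FPKM in HCC1937 (-2.67, adjusted p 1.28e-04). CD44 was called higher in SUM149PT CSCs (0.39, adjusted p 0.00168) and not in HCC1937 (0.12, adjusted p 0.314). In SUM159PT CD44 had a mean of 28.8 FPKM, below the means of SUM149PT CSCs (84.4 FPKM) and HCC1937 CSCs (106 FPKM). CD44 and CD24 together summed to 29.1 to 30.1 FPKM in SUM159PT, so CD24 was low there. All 5 epithelial markers were lower and both mesenchymal markers higher in the CSCs of both lines, beside the members' changes. The epithelial sum was 85.9, 92.0 and 88.3 FPKM in SUM149PT CSCs and 673, 674 and 680.2 in non-CSCs, and in HCC1937 515, 479 and 432 in CSCs and 1437, 1453 and 1244 in non-CSCs, with KRT18 or KRT8 most abundant. The mesenchymal sum, nearly all VIM, was 2029.6, 2209 and 2097 FPKM in SUM149PT CSCs against 229, 225 and 287 in non-CSCs, and in HCC1937 1041, 909 and 885 against 128, 196 and 169. In SUM159PT the epithelial sum was 292, 277 and 291 FPKM and the mesenchymal sum 1094, 1084 and 1065 FPKM. CDH1 and EPCAM were at means of 0.0681 and 0.0467 FPKM there, and KRT18 at 153 FPKM, against 40.9 FPKM in SUM149PT CSCs. Relative to SUM149PT CSCs, 2 of the 5 epithelial markers were called higher and 3 lower, against 28.3% and 53.3% of all genes. Relative to HCC1937 CSCs all 5 were called lower, against 57.2%. The part of these markers in the members' levels was not tested.

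Of the other cell types, the leukocyte marker CD3E was listed at 0 in all 15 libraries and PTPRC was at most 0.0986 FPKM. The endothelial markers PECAM1 and VWF summed to 0.128 to 0.171 FPKM in SUM149PT CSCs, 1.01 to 1.14 in SUM149PT non-CSCs, 0.523 to 0.743 in HCC1937 CSCs, 0.549 to 0.613 in HCC1937 non-CSCs and 0.0653 to 0.0804 in SUM159PT. Both were lower in SUM149PT CSCs, and in HCC1937 PECAM1 alone was tested and was not called (0.23, adjusted p 0.323). Of the 4 fibroblast markers, COL1A1 was most abundant in each group, and the list summed to 224 to 229.9 FPKM in SUM149PT CSCs, 64.7 to 68.0 in SUM149PT non-CSCs, 11.6 to 12.3 in HCC1937 CSCs, 6.04 to 7.78 in HCC1937 non-CSCs and 40.4 to 45.4 in SUM159PT. COL1A1 and PDGFRB were higher and DCN lower in SUM149PT CSCs, while COL1A2 was under the minimum there. In HCC1937 COL1A1 and COL1A2 were tested and higher in CSCs, and DCN was listed at 0 in the non-CSCs. The part of these genes in the levels of the 8 was not tested.

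The genes whose pattern over the 15 libraries was most like each member's were named by Pearson's r of log2(FPKM + 0.1) among 12163 other genes whose mean reached 1 FPKM, as a description; the libraries share 5 groups, and the SUM159PT level weighs heavily, so r over the 12 sorted libraries is given too. For MCL1 they were ZSWIM6 (r = 0.998, and 0.993 over the sorted libraries), FAM107B (0.998, 0.995) and COG5 (0.997, 0.987). For BCL2L1 they were ASS1P3 (r = 0.995, 0.981), HAUS4 (0.994, 0.977) and ARL6IP4 (0.993, 0.958). BAX was closest to AAR2 (r = 0.983, 0.967), HDDC3 (0.983, 0.948) and PIH1D1 (0.982, 0.948), and BAK1 to TPST2 (0.968, 0.983), PFKP (0.967, 0.976) and GALNT5 (0.966, 0.976). BID was closest to PYGB (r = 0.981, 0.980), RBCK1 (0.974, 0.964) and ACTN4 (0.970, 0.974). PMAIP1 was closest to SNAPC3 (r = 0.998, 0.989), BICD2 (0.998, 0.986) and JKAMP (0.997, 0.986), and BIK to LAMB3 (0.995, 0.982), RARRES1 (0.994, 0.988) and SAV1 (0.991, 0.978). BCL2 had a mean under 1 FPKM and was left out. Over the 12 sorted libraries the named genes ranked between 3 and 122 in likeness to their member.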

How the data were processed

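Messenger RNA libraries, 3 for each of 5 groups taken from the labels, were analysed from the FPKM values that the authors deposited for 33158 gene symbols. The submitters' processing notes name Bowtie2 (version not given) and GRCh38; the program that computed FPKM, its annotation and the use of strand are not given in the sources used here. Differences of log2(FPKM + 0.1) were fitted with limma 3.58.1 in R 4.3.3 over all genes with a mean of 0.1 FPKM or more, and p-values were adjusted by Benjamini and Hochberg's method over all of them. The fraction comparisons used the 6 libraries of a line, the difference between lines 12 and the contrasts between lines all 15. The code was tested on simulated data. Python 3.11.15 with pandas 2.3.3, numpy 2.4.6, scipy 1.17.1 and matplotlib 3.10.9 served for levels, exact tests and plots.

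All 8 members are named, and the 3 most alike genes by Pearson's r. Of the other lists only part of the called genes are named, and the rest enter through counts. Some of the planned list genes are not reported here. Members and lists were chosen with earlier results of these data known. Alternatives were a pseudocount of 0.01 or 1, no minimum or a minimum of 1 FPKM, TPM rescaling, upper quartile scaling, quantile normalization, eBayes with a trend or a robust trend, another set of libraries in the fit, a replicate block, each library left out and a stricter cutoff modelled on the study's. Removal of a trend on GC content or on transcript length was chosen after seeing the data. Gene positions are from GENCODE on GRCh38 and promoters from RefSeq on GRCh38.p14.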

Additional observations from a re-analysis of the deposited data

Results flagged for a closer look

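In limma's test of the difference between the lines' CSC effects, 7 of the 8 genes passed, against 61.1% of all genes. As SUM149PT minus HCC1937 on the log2(FPKM + 0.1) scale, the differences were 0.95 for BCL2L1 (adjusted p 1.05e-05), 0.41 for MCL1 (adjusted p 0.000640), 0.45 for BAK1 (adjusted p 0.00253) and 1.69 for BID (adjusted p 9.73e-07). PMAIP1 differed by -1.42 (adjusted p 6.07e-07) and BIK by -0.79 (adjusted p 0.00488). BCL2, at 0.59 (adjusted p 0.0456), was too low to test in HCC1937, where its levels lie under the added 0.1 FPKM, and its call was lost under 5 of 12 settings and with 8 of 12 single libraries left out, so it is not read as a difference. BCL2L1 and BID were called in opposite directions in the 2 lines, and BIK was called lower in both.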

How the results depend on the processing

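Of 1375 values of the 8 genes under alternatives, single libraries left out included, 1282 kept their direction and their side of the threshold, 35 lost a call, 36 gained one and 22 changed sign. Between the fractions of SUM149PT 150 kept both and 1 lost its call. Between those of HCC1937 105 kept both, 6 lost a call, 9 gained one and 13 changed sign. In HCC1937, TPM rescaling turned BAX to 0.0593, BAK1 to 0.0214 and PMAIP1 to 0.117, upper quartile scaling PMAIP1 to 0.0505, quantile normalization BAX to 0.000121 and PMAIP1 to 0.0444, GC trend removal BAX to 0.0519 and length trend removal PMAIP1 to 0.0338. Between HCC1937 and SUM149PT CSCs, BCL2L1 turned to -0.10 with upper quartile scaling, -0.10 with quantile normalization, -0.248 after GC trend removal and -0.249 after length trend removal. After either trend removal it was also called lower. For SUM159PT minus SUM149PT CSC, TPM rescaling turned BCL2 to -0.69 and BID to -0.21, and BAK1 became 0.0873 with upper quartile scaling and 0.54 after length trend removal; against HCC1937 CSC, TPM rescaling turned BAK1 to -0.60. The cause was not tested.

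With single libraries left out, BAX in HCC1937 ran from -0.183 to 0.0321 and PMAIP1 from -0.0594 to 0.0170. The stricter cutoff modelled on the study's, with a log2 difference in place of its enrichment score, left 2 of 8 members and 3292 of 16037 genes in SUM149PT, 0 of 7 and 0 of 15582 in HCC1937, 2 of 8 and 2922 of 16451 for the difference between lines, and of 8 members and 16373 genes 3 and 6111 between the CSCs, 5 and 5921 between the non-CSCs, 5 and 9145 for SUM159PT against SUM149PT CSCs and 7 and 9554 against HCC1937 CSCs, by its stricter limits. With the replicate number as a block, BAX passed for the difference between lines (-0.51, adjusted p 0.00360). Whether libraries with the same number were paired is not stated, and no pairing was used; their deviations correlated at 0.143, 0.0223 and 0.130 in SUM149PT and at -0.130, -0.0510 and -0.0280 in HCC1937. The depth is unknown, so how far it limits BCL2 and other low genes cannot be given.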
